A study of Mus musculus with 9 samples.

Results

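In GT1-7-OX1 cells, 127 genes kept close to their vehicle level after 3 h of orexin A (OxA) and were lower after 8 h. They were chosen by their measured values among 12553 genes with a vehicle mean of at least 2 CPM (the count of a gene scaled to the total count of its library), out of 37411 genes in the count table. A gene was taken if log2(group mean CPM + 0.5) was lower by at least 0.5 at 8 h than in vehicle, differed by less than 0.25 at 3 h, and if each of the 3 libraries at 8 h was below each of the 6 vehicle and 3 h libraries. The rule read all 9 libraries and all 3 comparisons, so the falls given here are a description of the genes it found and carry no test.

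GT1-7 is an immortalized mouse hypothalamic line, made with the SV40 T-antigen under the GnRH promoter, and all groups carried human OX1 from a lentivirus with a CMV promoter. The transduced cells were picked by the brightness of their GFP reporter and expanded, and a single clone is not named. The 3 conditions with 3 libraries each were sequenced: vehicle (H2O) for 8 h, 200 nM OxA for 3 h and 200 nM OxA for 8 h, each given in fresh medium. There was no 3 h vehicle, so at 3 h the OxA and the shorter time after the medium change cannot be told apart.

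OX1 is a G protein-coupled receptor that raises intracellular calcium when OxA, a hypothalamic neuropeptide, binds it. The level of an mRNA depends on how fast it is made and how fast it is lost, so transcripts can reach a new level at different times after a stimulus. The libraries were made from total RNA without rRNA, and such libraries hold reads from the introns of unfinished transcripts beside those of spliced mRNA. In these bulk samples fewer cells that express a gene and less RNA per cell cannot be told apart.

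The libraries held 16217786 to 20445364 counted reads. Of 19 neuronal markers, all were above 2 TPM (a level scaled to the length of the gene and to the library) in vehicle, and their summed level was 418 to 447 TPM in vehicle, 473 to 505 TPM at 3 h and 576 to 603 TPM at 8 h. *Vgf*, at 26.1 TPM in vehicle, 91.9 TPM at 3 h and 200.8 TPM at 8 h, made most of that difference, and of the 19 markers 5 were called higher and 1 lower at 8 h, with a median log2 fold change of -0.05. The 10 astrocyte markers, of which 3 were above 2 TPM, summed to 153 to 172 TPM in vehicle, 176 to 183 TPM at 3 h and 132 to 142 TPM at 8 h, mostly from *Glul* at 139.5 TPM in vehicle and 117 TPM at 8 h. The 10 microglial markers, of which 2 were above 2 TPM, summed to 9.76 to 11.9 TPM in vehicle and 11.6 to 12.4 TPM at 8 h. The 9 oligodendrocyte markers, of which 2 were above 2 TPM, summed to 21.6 to 26.5 TPM in vehicle and 17.7 to 19.6 TPM at 8 h. *Aqp4* and *Gjb6* were the only astrocyte markers, and *C1qa* and *C1qb* the only microglial ones, without reads in any library. Scaling by the column sum put the median of the 12553 genes at -0.10 at 3 h and -0.07 at 8 h on the log2 scale.

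The late fall was small for most of the 127 genes. The log2 difference between 8 h and vehicle had a median of -0.60 (range -2.02 to -0.50), against -0.07 over the 12553 genes. At 8 h the genes stood at a median of 63.7% of vehicle, and 8 of them were at or under 50%. The difference reached 1 on the log2 scale in 7 genes, lay between 0.75 and 1 in 14 and between 0.5 and 0.75 in 106. At 3 h the median difference was -0.10, the same to 2 decimals as over the 12553 genes, and 90 of the 127 genes were below vehicle. Among all 7519 genes within 0.25 of vehicle at 3 h, 63.3% were below it. In 23 of the 127 genes every 3 h library was already below every vehicle library, and in 6 every one was above. Every 3 h library was below vehicle in 22.6% of the 7519 genes.

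**Figure D1:**
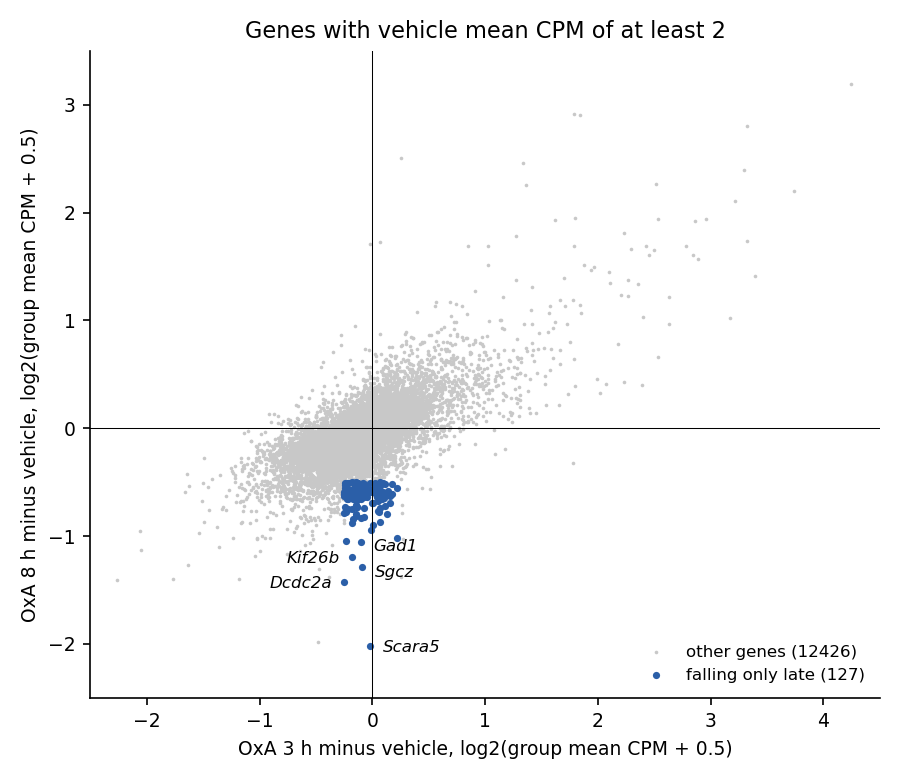
Each point is 1 gene with a vehicle mean of at least 2 CPM, placed by its difference from vehicle at 3 h (x axis) and at 8 h (y axis), both on the log2(group mean CPM + 0.5) scale. The 127 genes (blue) fill the narrow strip within 0.25 of 0 on the x axis and at or under -0.5 on the y axis, and *Scara5* lies at -2.02, apart from the rest.

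In edgeR's quasi-likelihood test with Benjamini-Hochberg adjustment, 125 of the 127 genes were called lower at 8 h than in vehicle at an adjusted p under 0.05, where 13.1% of all genes tested were, and 117 were called lower at 8 h than at 3 h, where 14.3% were. At 3 h, 3 were called lower and 8 higher than vehicle, where 18.7% and 20.2% of all genes tested were. With upper-quartile scaling the calls at 3 h were 3719 lower and 2426 higher, against 2869 and 3104. The rule used these comparisons, so nothing is read from these counts. The distance between the lowest other library and the highest 8 h library was a ratio of 1.23 in the median (1.01 to 3.07). Among the 8 h libraries, all of which the rule placed below the others, the lowest value was in replicate 1 for 42 genes, in replicate 2 for 29 and in replicate 3 for 56.

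The same measure was read in libraries that the choice had not used, by applying the rule to the libraries of 2 replicate numbers and reading the third. Of 168 genes chosen without number 1, 159 (94.6%) were lower at 8 h than in vehicle in the libraries of number 1, where 60.7% of all genes were. Of 150 chosen without number 2, 145 (96.7%) were lower, against 61.0% of all genes, and of 123 chosen without number 3, 118 (95.9%) were lower, against 60.6%. The median difference in the left-out libraries was -0.52, -0.60 and -0.52, against -0.60, -0.61 and -0.60 in the libraries that chose the genes. A fall of at least 0.5 was met by 54.2%, 69.3% and 50.4% of the chosen genes, and by 5.95%, 6.0% and 5.27% of all genes. The left-out 3 h libraries had medians of -0.13, -0.15 and 0.02, against -0.09, -0.12 and -0.07 over all genes.

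**Figure D2:**
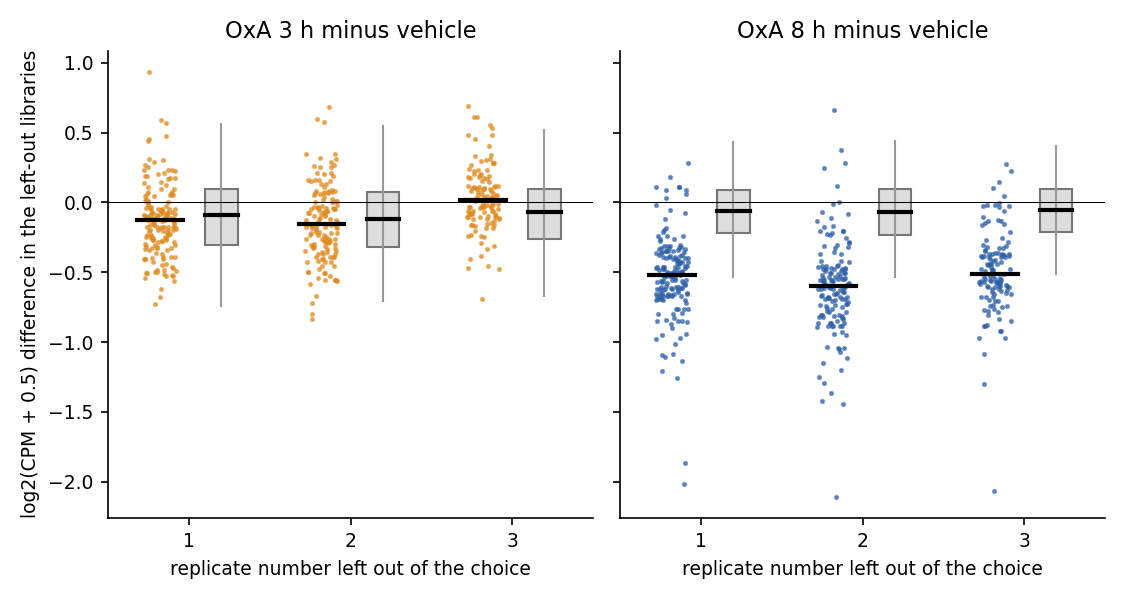
Differences from vehicle at 3 h (left) and 8 h (right) on the log2(CPM + 0.5) scale, read in the libraries of the replicate number left out of the choice (x axis). Points are the 168, 150 and 123 genes chosen from the other numbers, grey boxes show the quartiles of all genes with whiskers from the 5th to the 95th percentile, and black bars are medians, which at 8 h were -0.52, -0.60 and -0.52 for the chosen genes.

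The start regions of the genes were taken from RefSeq on GRCm38.p6, with 250 bases before and 50 after each start. Entries were found for 87 of the 127 genes, with 108 windows. The windows of 3 genes are shown as examples, 2 of them among the 5 largest falls and 1 with the cAMP response element (CRE, letters TGACGTCA) that it holds, with a match in capitals and positions counted from the start as 0. *Gad1* makes GABA, *Kif26b* encodes a kinesin family protein, and *Mturn* encodes a protein known in frog as a regulator of neural differentiation.
Gad1, TATA box TATAAA on the other strand at position -141, chr2:70561879-70562178, plus strand: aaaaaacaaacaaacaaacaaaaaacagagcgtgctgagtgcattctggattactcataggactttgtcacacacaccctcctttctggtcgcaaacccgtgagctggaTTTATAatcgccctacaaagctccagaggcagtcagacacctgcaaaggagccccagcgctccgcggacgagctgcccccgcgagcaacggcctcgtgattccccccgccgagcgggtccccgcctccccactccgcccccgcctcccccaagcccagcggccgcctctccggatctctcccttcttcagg
Kif26b, CCAAT box on the other strand at position -73, chr1:178528875-178529174, plus strand: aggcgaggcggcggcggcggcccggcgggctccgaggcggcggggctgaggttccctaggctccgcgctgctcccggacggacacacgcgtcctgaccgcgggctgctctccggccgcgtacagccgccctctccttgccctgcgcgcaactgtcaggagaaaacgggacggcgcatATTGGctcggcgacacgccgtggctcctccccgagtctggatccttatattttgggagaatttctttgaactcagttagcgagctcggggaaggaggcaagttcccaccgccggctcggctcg
Mturn, 2 matches to the CRE, the first at position -72, chr6:54681374-54681673, plus strand: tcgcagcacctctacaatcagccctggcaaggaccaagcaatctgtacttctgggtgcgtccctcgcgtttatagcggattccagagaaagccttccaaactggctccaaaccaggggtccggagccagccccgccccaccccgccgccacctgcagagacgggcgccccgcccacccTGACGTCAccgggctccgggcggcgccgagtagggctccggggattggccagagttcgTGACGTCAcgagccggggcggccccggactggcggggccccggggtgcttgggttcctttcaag

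The CRE was in 3 of the 108 windows (2.78%), those of *Mturn*, *Sh3gl2* and *Pdlim3*, and in 3.21% of the 12040 windows of genes with a vehicle mean of at least 2 CPM. All letters were searched on both strands. The GC box GGGCGG was in 65.7% against 63.3%, the CCAAT box in 35.2% against 38.3%, the TATA box in 7.41% against 7.03%, RUNX TGTGGT in 10.2% against 12.03%, and AP-1 TGANTCA in 7.41% against 4.73%. The core TGACG, which every CRE contains, was in 22.2% against 31.7%, and the E-box CACGTG in 4.63% against 9.87%. FOXO GTAAACA was in 3 windows (2.78% against 2.46%), the D-box TTATGTAA in 2 (1.85% against 0.490%) and STAT TTCCNGGAA in 1 (0.926% against 1.19%). No window held EGR GCGTGGGCG, T-box AGGTGTGA, NRF1 or MEF2, which were in 1.20%, 0.764%, 2.07% and 0.133% of the 12040 windows. With 108 windows, counts this small are not read as a difference. GC content had the same median of 61.3%, while the ratio of CpG found to CpG expected from base content had a median of 0.632 against 0.770. That ratio was over 0.6 in 55.6% of the windows and in 71.7% of those of all such genes. A low ratio was not particular to the late fall. Among genes chosen by a like rule, those lowered at both times had a median of 0.587, with 48.5% of windows over 0.6. Genes that fell at 3 h and were back by 8 h had 0.677 and 60.3%, and those that rose only late 0.717 and 65.5%.

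*Scara5*, a scavenger receptor that takes up ferritin, had the largest late fall. It was at 16.8, 24.5 and 17.1 CPM in vehicle, 16.3, 21.8 and 19.6 at 3 h, and 4.26, 5.29 and 3.70 at 8 h. The 3 h and vehicle libraries overlapped, and the highest 8 h library was 3.07-fold under the lowest of the others. The difference at 8 h was -2.02 (SE 0.22, n = 3 libraries a group, as for every SE here), a level 22.7% of vehicle, and at 3 h it was -0.02. *Colec12*, the other class A scavenger receptor above 2 CPM, stood at 86.3 TPM in vehicle against 7.57 TPM for *Scara5*, and differed by -0.10 at 8 h without a call. Of 14 iron uptake and storage genes tested, 2 were called lower and 6 higher at 8 h, where 13.1% of all genes tested were called lower and 15.3% higher, and *Scara5* was the one late-falling gene. *Tfrc*, the transferrin receptor, was at 81.1 TPM in vehicle, 123 TPM at 3 h and 108 TPM at 8 h. *Tmprss6*, a serine protease that lowers hepcidin in liver, was also late-falling, at 9.58, 8.62 and 7.75 CPM in vehicle, 8.31, 7.09 and 6.49 CPM at 3 h and 5.43, 5.54 and 5.86 CPM at 8 h.

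**Figure D3:**
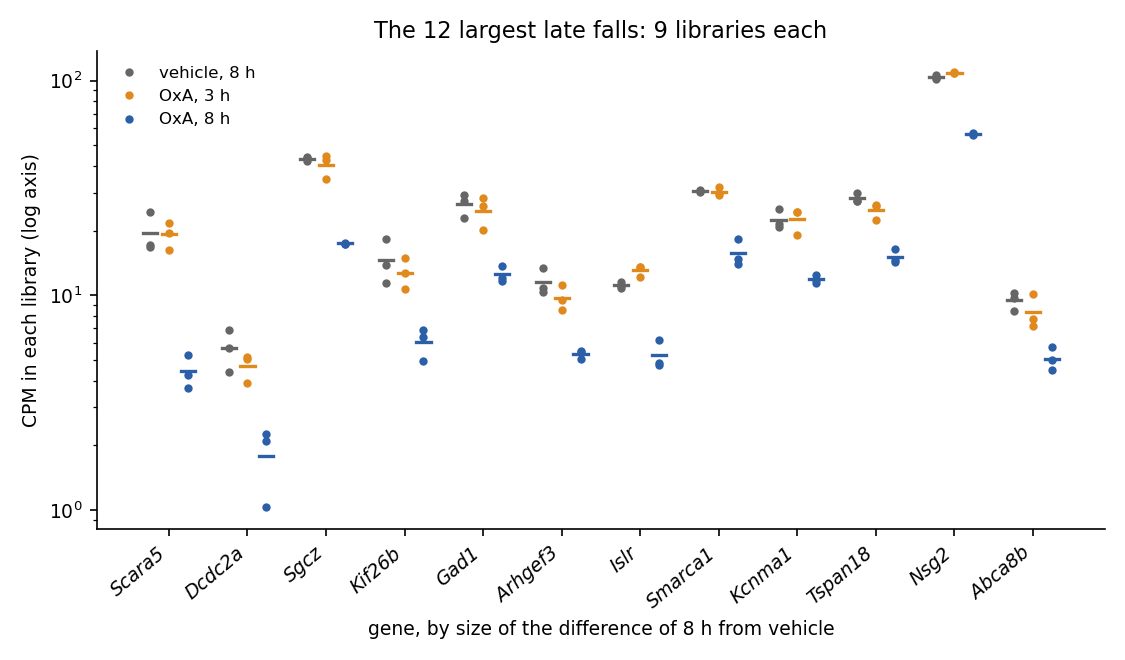
CPM (log axis) of the 12 genes with the largest late falls, with 1 point per library and a bar at the mean of each group (vehicle grey, OxA 3 h orange, OxA 8 h blue). The 3 h points lie among or near the vehicle points, and all 3 of the 8 h points lie under both, as the rule required. *Scara5* falls to 4.26, 5.29 and 3.70 CPM.

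Members that the rule for named genes did not pick are named by role after their values had been seen. The 12 roles differed little in the size of the late fall, with medians from -0.53 for 10 genes of transcription and chromatin to -0.79 for 4 lipid and ABC transporter genes, apart from the 2 iron genes. In all, 10 were ion channels, transporters of ions and transmitter receptors, with differences at 8 h of -0.90 to -0.51. *Kcnma1*, the pore-forming subunit of the BK potassium channel that opens with calcium and depolarization, was at 20.8, 25.2 and 21.5 CPM in vehicle, 19.2, 24.3 and 24.4 at 3 h, and 11.4, 11.7 and 12.4 at 8 h. Its 8 h libraries were closely spaced, and the difference was -0.90 (SE 0.09). Of 30 potassium channel genes tested, 6 were called lower and 5 higher at 8 h, against 13.1% and 15.3% of all genes tested. *Cacna1g* and *Cacna1h*, pore-forming subunits of T-type calcium channels, differed by -0.70 and -0.53 at 8 h and by 0.00 and -0.10 at 3 h. *Cacna2d3*, an auxiliary subunit, and *Cacng4*, a gamma subunit that also escorts AMPA receptors, were at -0.64 and -0.55. Of the other 11 calcium channel subunits above 2 CPM, 4 were called lower at 8 h and none higher, where 13.1% and 15.3% of all genes tested were: *Cacna1d*, *Cacna2d2*, *Cacnb1* and *Cacnb3*, with differences of -0.32, -0.32, -0.49 and -0.35. *Cacnb1* was called lower at 3 h as well, and *Cacna1d* and the late-falling *Cacna2d3* and *Cacng4* were not called by DESeq2 at 8 h. *Cacna1c*, an L-type pore, was at 0.05.

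*Grik2*, a kainate receptor subunit, was at 16.4, 16.1 and 14.6 CPM in vehicle, 13.7, 16.1 and 14.99 at 3 h, and 7.43, 8.59 and 9.99 at 8 h, a difference of -0.82 (SE 0.13). *Gabrq*, the theta subunit of the GABA-A receptor, was near the edge of the rule at -0.51. Of 17 glutamate and GABA receptor genes tested, 3 were called lower and 4 higher at 8 h, against 13.1% and 15.3% of all genes. *Htr3a*, a serotonin-gated channel, differed by -0.73 from a low vehicle level of 2.53 TPM. *Slc8a2*, a sodium/calcium exchanger of the plasma membrane, differed by -0.65, *Nkain4*, a partner of the sodium pump, by -0.74, and the *Slc8a2* paralogs *Slc8a1* and *Slc8a3* by -0.30 and 0.26 without a call.

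A further 14 genes act in transmitter synthesis, at synapses or in endocytic trafficking. *Gad1*, glutamate decarboxylase, was at 22.9, 29.4 and 27.4 CPM in vehicle, 20.1, 26.0 and 28.3 at 3 h, and 11.7, 12.1 and 13.8 at 8 h. The difference at 8 h was -1.06 (SE 0.13), whereas *Abat*, which breaks GABA down, was at -0.19 without a call. *Nsg2*, a neuronal endosomal protein, was among the most even members, at 102, 103 and 106 CPM in vehicle, 109, 109 and 108 at 3 h and 55.7, 56.3 and 57.2 at 8 h. Its 3 h libraries were all above vehicle, and the difference at 8 h was -0.87 (SE 0.02). *Nsg2* was called higher at 3 h, though not with upper-quartile scaling. Its paralog *Nsg1* was called higher at 3 h as well and also at 8 h, under each of the 3 scalings tried and by DESeq2, and differed by 0.26 at 8 h. *Pacsin1*, *Sh3gl2* and *Reps2*, proteins of endocytosis, differed by -0.84, -0.64 and -0.81. *Baiap3*, which acts in dense-core vesicle traffic, differed by -0.73, *Ly6h*, which modulates nicotinic receptors, by -0.77 and *Iqsec1*, an ARF exchange factor, by -0.51. Among postsynaptic scaffold and adhesion genes, *Tanc2*, *Shank2*, *Mpp2*, *Synpo*, *Lrrc4b* and *Cntn6* differed by -0.57, -0.64, -0.59, -0.61, -0.63 and -0.72.

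Axon guidance was represented by a ligand and its receptor. *Slit2*, a secreted repellent, was at 64.7, 65.4 and 64.1 CPM in vehicle, 59.2, 63.8 and 58.6 at 3 h, and 47.7, 44.5 and 42.5 at 8 h, a difference of -0.52. *Robo1*, a Slit receptor, was at 24.6, 22.2 and 21.7 CPM in vehicle, 23.3, 25.4 and 24.6 at 3 h, and 15.7, 15.1 and 14.2 at 8 h, a difference of -0.59. *Draxin*, a repellent of commissural axons, and *Rgma*, a ligand of neogenin, differed by -0.66 and -0.59. *Slit3*, the only other Slit or Robo gene above 2 CPM, differed by -0.39 at 8 h and was called lower at 3 h too. Of 56 guidance genes tested, 20 were called lower and 7 higher at 8 h, against 13.1% and 15.3% of all genes, and their median log2 fold change was -0.19 against -0.01 over all genes tested. Of the 33 Wnt pathway genes tested, 14 were called lower and 1 higher, against the same 13.1% and 15.3%, with a median of -0.27, and *Nkd1*, an intracellular Wnt antagonist, was the one late-falling gene, at -0.63 with all 3 h libraries above vehicle. Of 61 matrix and adhesion genes in the list used, 8 were called lower and 14 higher, against 13.1% and 15.3%, with *Col2a1*, a fibrillar collagen chain, the one late-falling gene at -0.65. Of 20 cadherins and protocadherins, 11 were called lower and 3 higher, against 13.1% and 15.3% of all genes, with a median of -0.24, and none was late-falling.

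By role, 20 genes were of the matrix, of adhesion or of membrane structure, a wider group than that list. *Sgcz*, zeta-sarcoglycan, a subunit of the complex that links dystrophin to the membrane, was at 42.2, 43.4 and 44.1 CPM in vehicle, 34.8, 42.6 and 44.6 at 3 h, and 17.4, 17.4 and 17.6 at 8 h. The 8 h libraries hardly differed, and the difference was -1.29 (SE 0.02). The 2 other sarcoglycans above 2 CPM, *Sgcb* and *Sgce*, were at -0.21 and -0.14 without a call, though *Sgcb* was called lower with upper-quartile scaling. *Islr*, a secreted leucine-rich repeat protein, was at 10.8, 11.6 and 11.0 CPM in vehicle, 13.6, 13.5 and 12.1 at 3 h, and 4.84, 4.74 and 6.17 at 8 h. Its 3 h libraries stood above vehicle and the difference at 8 h was -1.02 (SE 0.11). *Tspan18*, a tetraspanin, differed by -0.88, and *Mmp15*, a membrane-bound metalloprotease, by -0.71. The secreted or matrix genes *Nyx*, *Cilp*, *Hmcn1*, *Fndc1*, *Smoc2*, *Tinagl1* and *Ecm2* differed by -0.74, -0.69, -0.67, -0.66, -0.63, -0.58 and -0.54, and the tight junction genes *F11r* and *Cldn9* by -0.62 and -0.58. *Sh3pxd2a*, a podosome scaffold, *Susd5*, *Antxr1* and *Zpld1* completed the group at -0.63 to -0.51. *Bves* and *Popdc3*, the Popeye domain genes above 2 CPM, bind cAMP and are neighbours on chromosome 10 with 17.3 kb between them. *Bves* was at 34.0, 36.0 and 35.6 CPM in vehicle, 30.3, 39.5 and 34.0 at 3 h, and 19.96, 26.8 and 23.7 at 8 h. *Popdc3* was at 6.22, 9.83 and 6.73 CPM in vehicle, 5.46, 6.91 and 7.61 at 3 h, and 3.72, 4.49 and 4.75 at 8 h. Each overlapped vehicle at 3 h, and the differences at 8 h were -0.58 and -0.75.

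Genes of the cytoskeleton numbered 10. *Dcdc2a*, a doublecortin domain protein that binds microtubules, was at 5.67, 6.88 and 4.41 CPM in vehicle, 3.88, 5.02 and 5.15 at 3 h, and 1.03, 2.25 and 2.10 at 8 h, with a difference of -1.43 (SE 0.32). Its 3 h difference of -0.25 was at the edge of the rule. *Kif26b* was at 11.4, 18.3 and 13.9 CPM in vehicle, 10.7, 12.7 and 14.9 at 3 h, and 4.94, 6.39 and 6.91 at 8 h. Both genes varied widely among vehicle libraries, all of which the rule placed above 8 h. *Whrn*, a scaffold of stereocilia and synapses, was just inside the rule at -0.50. The other 7, *Lrrc16b*, *Clmn*, *Sept6*, *Morn4*, *Myl6b*, *Pdlim3* and *Dnah2*, ranged from -0.77 to -0.51, and include a septin, a myosin light chain and an axonemal dynein.

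Growth factor receptors and signalling genes numbered 13. *Tgfbr3*, a co-receptor for TGF-beta and inhibin, had the highest vehicle CPM of all 127 genes, at 244, 264 and 220, with 213, 246 and 230 at 3 h and 159, 169 and 146 at 8 h. The difference at 8 h was -0.62, and *Tgfbr3* was the one late-falling gene of the Notch, BMP and TGF-beta list, of which 7 of 45 genes tested were called lower and 12 higher, against 13.1% and 15.3% of all genes. *Arhgef3*, a guanine nucleotide exchange factor, was at 13.4, 10.8 and 10.3 CPM in vehicle, 8.55, 9.45 and 11.2 at 3 h, and 5.53, 5.44 and 5.06 at 8 h, a difference of -1.04 (SE 0.12). *Ldlrad4*, an inhibitor of TGF-beta signalling, differed by -0.80, *Eda*, the ligand ectodysplasin, by -0.61, *Map2k6*, a kinase that activates p38, by -0.58, and *Ptpn13*, a tyrosine phosphatase, by -0.59. *Trim67*, *Pdzrn3*, *Nrk* and *Gpr137c* differed by -0.73, -0.59, -0.54 and -0.54. *Kdr*, a VEGF receptor used as an endothelial marker, was at 18.5, 20.3 and 19.2 CPM in vehicle, 20.9, 20.2 and 21.9 at 3 h and 13.7, 13.3 and 13.2 at 8 h. It was the only one of 8 endothelial markers above 2 TPM, and *Pecam1*, *Cldn5* and *Cdh5* were at 0.308, 0.142 and 0.216 TPM in vehicle. *Cdh5* was called higher at 8 h, at 0.527 TPM. Summed endothelial markers were 7.71 to 8.51 TPM in vehicle, 8.18 to 8.80 TPM at 3 h and 6.08 to 6.18 TPM at 8 h. *Pdgfra*, a PDGF receptor used as a fibroblast marker, differed by -0.58, and the 8 fibroblast markers summed to 35.6 to 43.8 TPM in vehicle, 35.2 to 36.9 TPM at 3 h and 33.6 to 40.5 TPM at 8 h. The part of other cell types in these levels was not tested.

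Another 10 genes act in transcription or chromatin. *Smarca1*, the ATPase of a nucleosome-spacing complex, was at 30.8, 30.8 and 30.2 CPM in vehicle, 29.8, 29.2 and 32.1 at 3 h, and 14.0, 14.7 and 18.3 at 8 h, a difference of -0.94 (SE 0.12). Without replicate 3 at 8 h, its highest 8 h library, the difference was -1.07. Its closest paralog *Smarca5* differed by 0.16 and was called higher at both times. *Tead2*, a partner of the coactivator YAP, was at 23.7, 20.6 and 19.0 CPM in vehicle, 18.7, 16.5 and 17.8 at 3 h, and 15.8, 12.1 and 13.0 at 8 h. Its 3 h libraries were already all below vehicle. *Tead2* differed by -0.61, while *Tead1* and *Tead4* were at 0.20 and 0.53 at 8 h and were called higher at both times, *Tead4* at 8 h not by DESeq2. *Nfia*, a nuclear factor I protein active in gliogenesis, was just inside the rule at -0.50, with *Nfic* and *Nfix* at -0.28, both called lower at 8 h (*Nfic* not by DESeq2), and *Nfib* at -0.01. Of 24 transcription factors of GnRH neurons tested, 8 were called lower and 1 higher at 8 h, against 13.1% and 15.3% of all genes, and *Nfia* was the one late-falling gene. *Mturn* differed by -0.66, *Calcoco1* by -0.54, *Cdk19*, a kinase of the Mediator complex, by -0.53, *H1fx*, a linker histone, by -0.52, and the zinc finger genes *Zfp667*, *Zfp423* and *Zswim6* by -0.53, -0.51 and -0.51.

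The 19 enzymes covered several pathways, from -0.78 to -0.51. *Pfkm*, a phosphofructokinase of glycolysis, was at 112, 113 and 112 CPM in vehicle, 101, 112 and 111 at 3 h, and 72.7, 76.7 and 75.9 at 8 h, a difference of -0.58. *Acss2*, *Idh1* and *Sord*, which handle acetate, isocitrate and sorbitol, differed by -0.56, -0.56 and -0.57. *Mgst1* and *Gstm1*, glutathione transferases, differed by -0.61 and -0.51. *Arsa*, lysosomal arylsulfatase A, differed by -0.52, *Ppp1r3c*, which targets a phosphatase to glycogen, by -0.63, *Mt3*, a metallothionein of brain, by -0.57, and the sialyltransferases *St6galnac3* and *St3gal1* by -0.60 and -0.58. The other 8 were *Lctl*, *Thnsl2*, *Glb1l2*, *Hacl1*, *Bdh2*, *Glt8d2*, *Siae* and *Pir*, at -0.78 to -0.54. *Psmb9*, an immunoproteasome subunit, and *Ifitm1*, an interferon-induced membrane protein, differed by -0.60 and -0.59. Among the lipid and ABC transporter genes, *Abca8b* was at 8.42, 10.3 and 9.73 CPM in vehicle, 7.22, 7.74 and 10.1 at 3 h, and 5.72, 4.49 and 4.99 at 8 h. *Abca9* was at 22.2, 27.0 and 27.0 CPM in vehicle, 26.2, 27.2 and 30.4 at 3 h, and 13.5, 14.4 and 15.5 at 8 h. These paralogs lie on the same strand of chromosome 11 with 104.9 kb between them. How the counting treated reads that match both is not given in the sources used here. The other 5 ABCA genes above 2 CPM were at -0.59 to -0.30 at 8 h, with 4 called lower by edgeR, and *Abca1*, at -0.59, by DESeq2 only. *Abcb4*, a phospholipid transporter, differed by -0.56. *Serinc5*, a membrane protein that restricts retroviruses, was at -0.79 at 8 h and at the edge of the rule at 3 h. *Wdr6* and *Fam171b*, among the genes highest in vehicle, differed by -0.55 and -0.57. The 18 genes without a settled role also hold *Lrrc56*, *N4bp2l1*, *Prr13*, *Cxx1c*, *Pdzd2*, *Fam78b*, *Fam229b*, *Gm10643*, *Gm15567*, *Gm15868* and *Gm29017*, at -0.66 to -0.51.

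Of the 127, 4 are models of unsettled status (class TEC in GENCODE M21 on GRCm38) that lie inside *Auts2*, a chromatin-associated gene of neurodevelopment, on its strand of chromosome 5 and outside its annotated exons. *Gm42442* was at 3.58, 3.87 and 3.73 CPM in vehicle, 3.94, 4.55 and 3.41 at 3 h, and 2.69, 2.10 and 2.03 at 8 h. *Gm42443*, *Gm43483* and *Gm42589* differed by -0.50, -0.51 and -0.61 at 8 h and by 0.07, 0.18 and 0.03 at 3 h. These models share a host and are not 4 separate observations. *Auts2* itself, counted over its exons, was at 116, 119 and 108 CPM in vehicle, 101, 98.6 and 97.8 at 3 h and 97.0, 100.2 and 86.9 at 8 h.

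The host held 21 such models above 2 CPM on its strand, and they differed at 3 h by their distance from its start, a comparison made after the values were seen. Within 200 kb of the start, 6 models had differences at 3 h of -1.03 to -0.87, and 2 models at 337 and 341 kb had -1.67 and -1.62. The 8 models from 524 to 659 kb had -0.81 to -0.08, and the 5 models from 846 to 939 kb had 0.03 to 0.44. The 4 late-falling models are among these last 5, and the other, *Gm42588*, was left out by its 0.44 at 3 h. At 8 h the 4 stretches had medians of -0.54, -0.57, -0.57 and -0.56, so the stretches that stood apart at 3 h were alike at 8 h. The 3 h libraries disagreed in the third stretch, with medians of -1.19, -0.50 and -0.12 in replicates 1, 2 and 3, and in the last with 0.05, 0.18 and 0.33. In the first stretch they were at -0.99, -0.94 and -0.93, and in the second, with 2 models, at -1.92, -1.88 and -1.24. Over the 295 models inside other protein-coding genes on the same strand the median was -0.09 at 3 h and -0.03 at 8 h, and none was late-falling. That median pools hosts of all lengths, so it cannot show whether other hosts differ by distance. In *Pard3b* (1003 kb), picked after the values were seen, models at 17.0, 39.9 and 167 kb had -0.51, -0.56 and -0.52 at 3 h. Its model at 610 kb had -0.06. In *Agap1* (443 kb) the order was the reverse, with 0.27 at 29.8 kb and -0.36 at 372 kb.

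**Figure D4:**
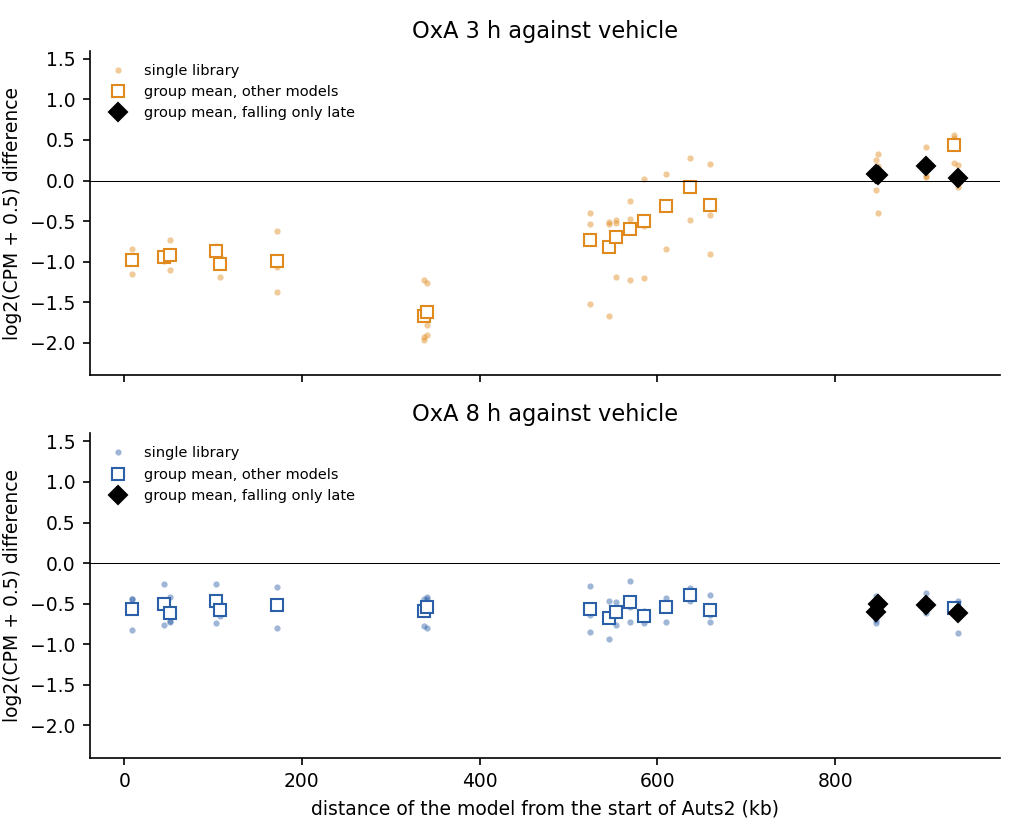
Difference from vehicle on the log2(CPM + 0.5) scale of the 21 models inside *Auts2* by the distance of their middle from its start (kb), at 3 h (top) and 8 h (bottom). Small points are single libraries against the vehicle mean, squares and diamonds are group means, and diamonds mark the 4 late-falling models. At 3 h the values go from about -1 near the start through -1.67 and -1.62 to above 0 beyond 846 kb, and at 8 h they lie between -0.68 and -0.39 throughout.

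Models of the same class inside 3 late-falling hosts, on the same strand, could be set beside their hosts. Whether they overlap exons of these hosts was not examined. In *Tgfbr3*, *Gm43422* was at 4.62, 5.78 and 4.58 CPM in vehicle, 1.76, 2.30 and 2.46 at 3 h, and 2.54, 4.09 and 2.84 at 8 h. It was under all vehicle libraries at 3 h, when *Tgfbr3* differed by -0.08, and the model differed by -1.04 at 3 h and -0.59 at 8 h. *Gm42900*, nearer the start of *Tgfbr3*, differed by -0.77 and -0.32. In *St6galnac3*, *A530083M17Rik* differed by -0.45 at 3 h and -0.04 at 8 h, while the host differed by -0.02 and -0.60. In *Ccser1*, *Gm43896* at 796 kb from the start differed by -0.14 and -0.41, and its host by -0.07 and -0.51. The models are few per host and low, with *A530083M17Rik* at 2.09 CPM and *Gm43896* at 2.75 CPM in vehicle. No order of change between introns and exons is read from them.

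The late-falling genes had a longer median gene length than the rest, given as a description with no test across genes. All 127 were placed in GENCODE M21 and 119 are protein coding, with a median gene length of 58.7 kb (quartiles 21.8 and 142 kb) against 25.7 kb (11.2 and 60.3 kb) for 11191 protein-coding genes above 2 CPM. Of the 119, 38 (31.9%) exceeded 100 kb, against 14.3%, and 8 (6.72%) exceeded 500 kb, against 1.00%. Exon length differed less, with medians of 5.73 and 4.73 kb. The median was lower for genes chosen by a like rule for other courses, at 34.9 kb for 242 genes lowered at both times, 23.98 kb for 427 that fell at 3 h and were back by 8 h, and 31.6 kb for 54 that rose only late. Very long genes were not particular to the late fall: of the 52 protein-coding genes that rose only late, 4 (7.69%) exceeded 500 kb and 23.1% exceeded 100 kb. The level of the genes moved with membership too, with a median vehicle level of 8.59 TPM against 22.3 TPM. Within the middle range of that level, 2.93 to 17.9 TPM, the median length was 60.9 kb for 58 late-falling genes and 25.02 kb for all 3547 genes.

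Late-falling genes were most frequent in the longest class. Of 305 genes over 300 kb, 20 (6.56%) were late-falling, against 1.39% of those from 100 to 300 kb, 1.20% from 30 to 100 kb, 0.734% from 10 to 30 kb and 0.522% up to 10 kb. Over all genes longer than 300 kb the median difference was -0.11 at 3 h and -0.17 at 8 h, and in the shorter classes it was -0.10 to -0.08 and -0.09 to -0.05. The longest late-falling genes include *Park2*, a ubiquitin ligase that marks damaged mitochondria, *Ccser1*, *Sgcz*, *Cacna2d3*, *Robo1*, *Kcnma1* and *Grik2*, with 1222978, 1202542, 1139211, 816922, 737790, 725061 and 693934 bp. *Park2* was at 7.16, 7.86 and 7.69 CPM in vehicle, 7.46, 8.86 and 8.33 at 3 h, and 5.04, 5.04 and 4.32 at 8 h.

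**Figure D5:**
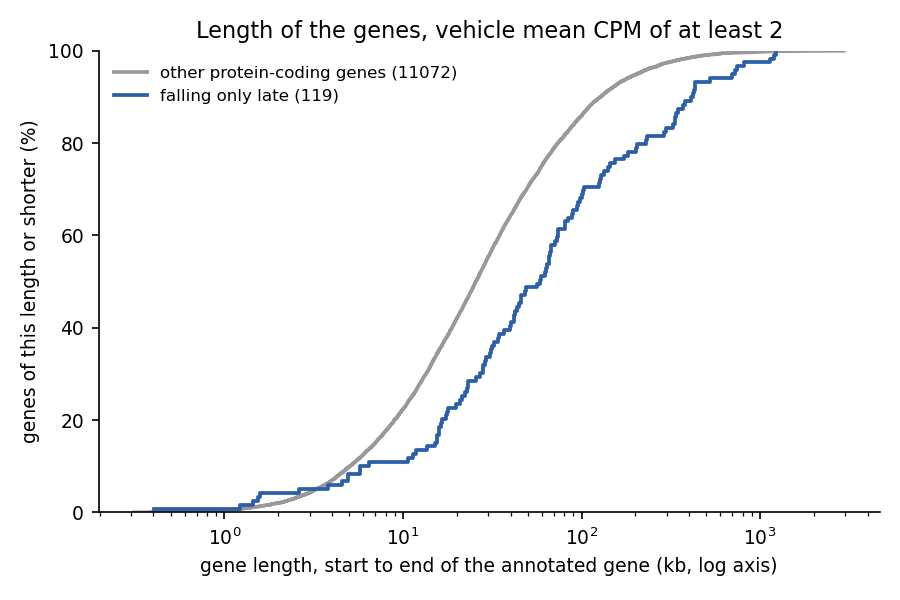
Share of protein-coding genes (y axis, %) at or under a gene length (x axis, kb, log axis) for the 119 late-falling genes (blue) and the other genes with a vehicle mean of at least 2 CPM (grey). The blue curve lies to the right of the grey one over most of the range, with medians of 58.7 kb for the late-falling genes and 25.7 kb for all such genes.

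Members were found on 20 chromosomes, from 0.235% of the genes above 2 CPM on chromosome 12 (1 gene) to 2.07% on chromosome X (9 genes). Of the members, 24 overlap another gene above 2 CPM, and the strand setting of the counting is not given in the sources used here, so reads of such pairs, including *Gm15868* with *Fopnl*, may not be fully separated. The borders of the rule cut through a continuum. Just inside the fall at 8 h were *Nfia*, *Gm42443* and *Whrn* at -0.50, and just outside *Appl2*, *Cby1* and *Med16*, which round to -0.50 as well. Just inside the limit at 3 h were *Lrrc4b*, *Ptpn13* and *Serinc5* at -0.25, and just outside *Notch3*, *Ift46* and *Necab1*, which also round to -0.25, with falls at 8 h of -0.85, -0.52 and -0.88. At the CPM minimum, *Thnsl2*, *Ly6h* and *Trim67* were inside at 2.09, 2.16 and 2.26 CPM, and *Sdpr*, *Rnf208* and *Rbm24* outside at 1.84, 1.74 and 1.64 CPM. With TMM scaling the rule chose 112 genes, of which 92 were among the 127.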

How the data were processed

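RNA-Seq was done on 9 samples, 3 in each of 3 groups taken from the labels. The authors prepared stranded total RNA libraries, trimmed reads with Trimmomatic (version 0.3 in the submitters' processing notes), used STAR 2.5.2a for alignment (mm10), and obtained the counts for each gene by HTSeq 0.6.0. The authors' deposited counts are whole, not normalized, and were used for the rule, CPM and tests. The deposited TPM values of the authors were used for levels between genes, with gene lengths that are not stated. The authors' deposited comparison tables hold fold changes and p-values from DESeq2 1.10.1 and were not used, nor were their normalized counts.

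The members, roles and gene lists were chosen with earlier results of these data known. Calls came from edgeR 4.0.16 in R 4.3.3 (TMM, filterByExpr, robust quasi-likelihood fit of the 2 groups compared, Benjamini-Hochberg, adjusted p under 0.05), tested on simulated data, with DESeq2 1.42.0 as an alternative. A log2 difference is of group mean CPM plus a pseudocount of 0.5, and its SE comes from log2(CPM + 0.5) of the 3 libraries a group. The replicates were treated in repeated rounds, which the main tests did not model. Each p-value sets the difference between the 2 groups compared against the spread between libraries within them. Counts of 16217786 to 20445364 reads a library gave the members a median SE of 0.11. Genes named were *Scara5*, the 12 largest falls, the 8 highest in vehicle, up to 4 per list and 3 on each side of each threshold, and others are named as chosen after their values were seen. Positions are from GENCODE M21 and promoters from RefSeq, matched by symbol. Alternatives were other scalings, pseudocounts, thresholds, a replicate block and leaving out each library.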

Additional observations from a re-analysis of the deposited data

How the results depend on the processing

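The rule chose 127 genes. It chose 112 with TMM (92 of the 127), 115 with upper-quartile scaling (90), 112 with DESeq2 size factors (88), 136 and 113 with pseudocounts of 0.1 and 1, and 118 to 154 without a single library (93 to 119 of the 127). A fall of at least 0.4 gave 233 genes and of at least 0.6 gave 63. For the 38 named members the 608 values under other scalings, pseudocounts, the block and left-out libraries kept their sign. The rule had required a fall of at least 0.5 with each 8 h library lowest, so nothing is read from the kept sign. Of the 608 values, 16 moved by more than the spread between libraries. Left-out libraries were below vehicle for 95.7% of chosen genes with the column sum and 94.4% with TMM, pooled over lists that share genes. Over all genes the shares were 60.6% to 61.0% with the column sum and 48.1% to 52.3% with TMM. The cause was not tested. Members called lower at 8 h numbered 125 in the main fit, 105 with the DESeq2 Wald test and 110 to 119 without a single library. In the main fit 13.1% of all genes tested were called lower. The rule used this comparison, so nothing is read from these counts of members. Upper-quartile scaling gave 2515 lower and 1994 higher calls at 8 h, against 2018 and 2359.

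The replicate numbers were not treated as pairs: deviations of same-numbered samples correlated by 0.02 to 0.29, over 0.1 in 6 of 9, and those of other numbers by -0.23 to 0.11, with 5 of 9 samples closest to their own number in both other groups. With the replicate block the rule chose 134 genes (122 of the 127), and 126 members were called lower, a count from which nothing is read. Genes called were 5558 at 8 h against 4377, 6500 at 3 h against 5973 and 5348 between the times against 4277. Low counts limit the smallest members, whose mean at 8 h was as low as 20 reads.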
